A study of Mus musculus with 4 samples.

Results

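Cyclic AMP signalling was examined in the suprachiasmatic nucleus (SCN) of the mouse, the brain's central circadian pacemaker, through the genes for adenylyl cyclases, phosphodiesterases, protein kinase A (PKA), its anchoring proteins and the CREB family. Members were chosen by gene name: array features (probesets) annotated to exactly 1 gene symbol of the form Adcy, Pde, Prkac, Prkar or Akap followed by its number or letter, together with Creb1, Crem, Crtc1, Crtc2 and Crtc3. This gave 64 probesets for 62 genes out of 22180 genes measured. Probesets that named a second gene as well were left out, so Adcy3 and Atf1 are not among the members. The rule reads gene names and annotation, and it was proposed with earlier results of these arrays known.

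The data are 4 Affymetrix arrays, 1 for each combination of time and surgical state. The groups were HPX mice (hypophysectomized, that is without the pituitary gland) at ZT2, HPX at ZT14, control (non-HPX) mice at ZT2 and non-HPX at ZT14, all kept in 12 h of light and 12 h of darkness. ZT is Zeitgeber time, hours after lights on, so that ZT2 falls in the day and ZT14 in the night. Each array held pooled laser-microdissected SCN tissue, from 10 animals at each time according to the design text, which does not say whether 10 were used in each state. The labels file HPX under genotype and name neither strain, sex nor age, nor whether the controls had sham surgery. The spread between animals was therefore not measured, and in pooled bulk tissue fewer cells of a type and less RNA per cell cannot be told apart.

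All 10 markers of SCN neurons (among them Vip, Avp, Six6 and Lhx1) were expressed in the tissue. All 7 pituitary hormone transcripts lay below the expression floor, a log2 value of 6.02 explained below, in every array. Markers of other hypothalamic neurons (4 of 8 measured were expressed: Oxt, Th, Trh and Hdc) had a summed linear signal of 2713 and 2675 in the non-HPX arrays against 1057 and 1361 in the HPX arrays. Most of that fall lay with Oxt, whose log2 difference, HPX minus non-HPX, was -2.43 at ZT2 and -1.47 at ZT14. The difference was -0.97 and -1.04 for Th, -0.38 and -0.52 for Trh, and -0.10 and 0.27 for Hdc. The part of these markers in the differences between surgical states given below was not tested. The summed signal of 7 astrocyte markers ranged from 3739 to 4054 over the 4 arrays and that of 6 oligodendrocyte markers from 1541, in HPX ZT14, to 1923. The sums of 7 microglial markers and of 7 endothelial and mural markers are given beside the night differences.

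Adenylyl cyclases make cyclic AMP from ATP when stimulatory G proteins activate them, and phosphodiesterases break it down. Cyclic AMP frees the catalytic subunits of PKA from the regulatory subunits, which anchoring proteins hold at particular places in the cell, and PKA phosphorylates CREB, a transcription factor that works with CRTC coactivators at cyclic AMP response elements (CREs) in DNA. In the SCN this pathway carries the signal of the peptide VIP, helps to keep the cells in step with each other and feeds into the clock gene Per1. Crem is a CREB relative and also a CREB target, whose internal promoter gives the short repressor ICER. The arrays gave 1 value per gene, so transcripts from different promoters of Crem, Pde4d or Pde10a were not separated.

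RefSeq promoter windows (assembly GRCm38.p6) were available for 49 of the 62 genes. Crem had no window and was therefore not searched for any motif. The stretches below are the 250 bases before the annotated start of Pde10a, which has 2 starts in that table, and of Pde4d. They are shown because these were the expressed members with the largest mean night change. Each motif was searched on both strands. Capitals in the first stretch mark a GC box, which is GGGCGG on the strand not shown. In the second stretch they mark a CCAAT box. In the third they mark the letters CACGTT, which differ from an E-box in the last base.
Pde10a, chr17:8801495-8801744, plus strand: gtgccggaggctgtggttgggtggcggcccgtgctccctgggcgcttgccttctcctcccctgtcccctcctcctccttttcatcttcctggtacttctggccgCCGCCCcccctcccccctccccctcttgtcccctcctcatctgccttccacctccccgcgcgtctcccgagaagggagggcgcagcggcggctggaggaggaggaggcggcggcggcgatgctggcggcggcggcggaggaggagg
Pde10a, chr17:8849735-8849984, plus strand: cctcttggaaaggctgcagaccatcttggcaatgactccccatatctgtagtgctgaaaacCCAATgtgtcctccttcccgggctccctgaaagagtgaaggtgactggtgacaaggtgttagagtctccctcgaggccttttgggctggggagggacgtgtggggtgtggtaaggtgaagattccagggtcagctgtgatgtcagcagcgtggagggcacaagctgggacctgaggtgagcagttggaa
Pde4d, chr13:108653927-108654176, plus strand: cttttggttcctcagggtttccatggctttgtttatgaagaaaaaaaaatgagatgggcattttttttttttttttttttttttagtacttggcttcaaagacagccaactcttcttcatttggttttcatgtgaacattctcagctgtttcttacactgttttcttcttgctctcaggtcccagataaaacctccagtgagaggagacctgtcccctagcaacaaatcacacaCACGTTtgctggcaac

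These 3 stretches differed in base composition, with 72.8% and 56% G or C for Pde10a and 38.8% for Pde4d, and none held the full CRE, which is TGACGTCA. Nor did any hold the short CRE, which is the first 5 letters of the full one, TGACG, or the E-box with the letters CACGTG. The full CRE was found in the windows of 1 member, Prkar1a, a PKA regulatory subunit, where it began 49 bases before an annotated start. The 30 bases around it, at chr11:109650889-109650918 on the plus strand, are given with the CRE in capitals.
Prkar1a: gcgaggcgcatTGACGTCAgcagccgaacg
Over 91 windows of 300 bases (250 before and 50 after a start) for the 49 genes, the full CRE stood in 2.2% against 1.79% of the 32851 windows of all genes. The short CRE, which lies within every full one and is counted in both, stood in 19.8% against 20.8%, and the E-box in 8.79% against 7.15%. The GC box stood in 46.2% of the members' windows against 35.7% of all, the CCAAT box in 37.4% of both, and CACGTT in 1.1% against 4.68%. These shares of member windows are descriptions of letters in DNA and were not tested.

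Values are log2 expression values, and genes were called expressed from their highest value over the arrays, which had to reach 6.02, its median over all genes. This kept 46 of the 62 members and 11090 genes in all, and 43 members lay above the floor in every array. Since levels of different genes depend on their probes, only the same gene was compared between arrays. With 1 array per group a difference between 2 arrays has no replicate check. Genes at least 1.5-fold apart were counted, and the average effects of time and of surgery were tested in an additive limma fit over all expressed genes (two-sided, Benjamini-Hochberg adjustment, threshold 0.05), whose single residual degree of freedom is the interaction of time and surgery. Values after ± are standard errors (SE) of that fit. Its p-values rest chiefly on a variance pooled across genes in these 4 arrays and do not measure the spread between animals.

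No member passed an adjusted p of 0.05 for time or for surgery in the limma fit, where 0.541% of all expressed genes passed for time and 0.135% for surgery. At an unadjusted p under 0.05 stood 4 of the 46 members for time (8.21% of all genes) and 3 of 46 for surgery (4.68% of all genes). These shares lie too near the background to set the members apart from other genes. The 4 differences between pairs of arrays ranged over the 46 expressed members from -0.68 to 0.39 on the log2 scale. Only 1 of these 184 differences, that of the phosphodiesterase gene Pde10a, reached 1.5-fold.

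**Figure D1:**
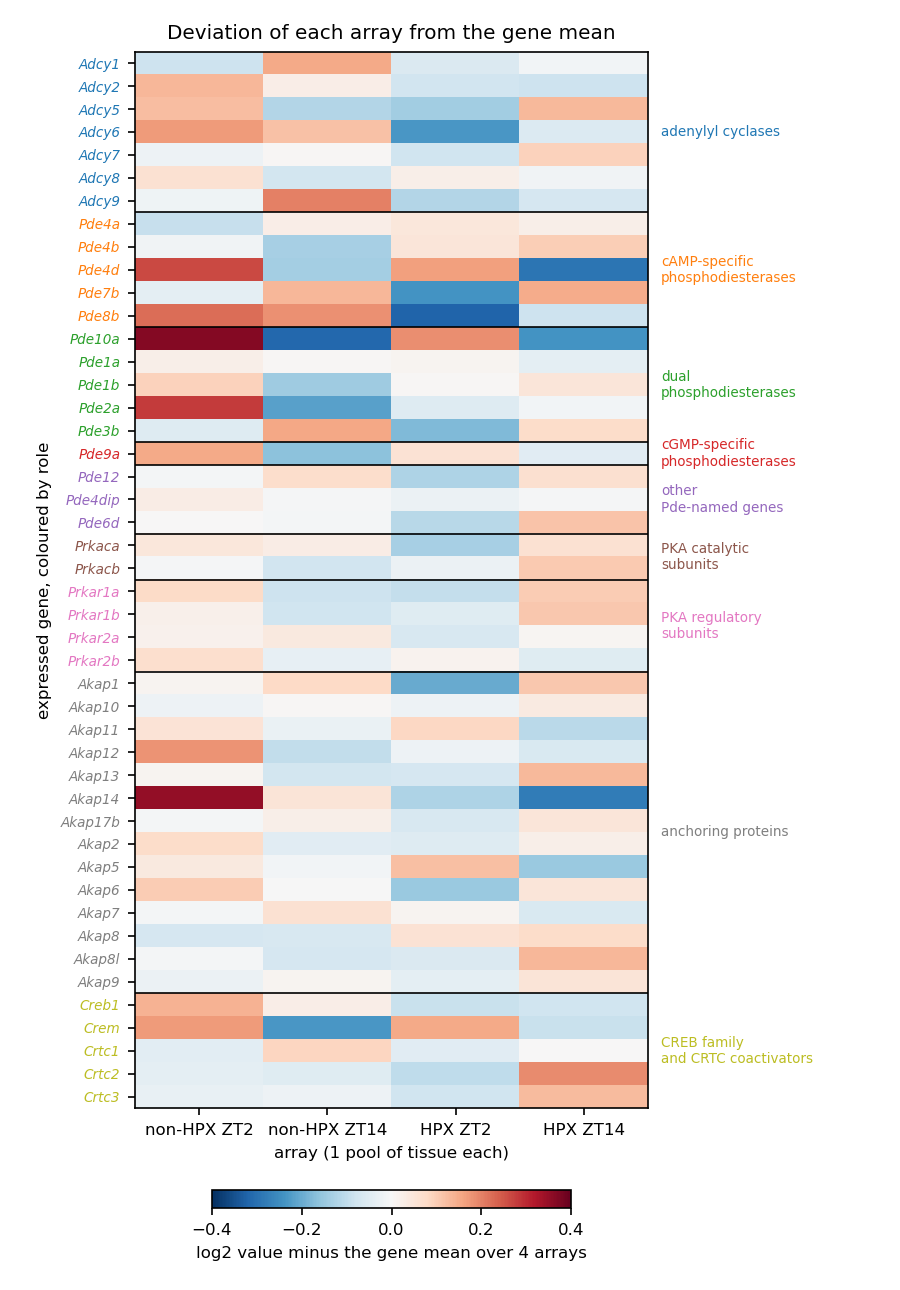
Heat map of the 46 expressed members (rows, ordered and coloured by role) in the 4 arrays (columns); colour is the log2 value minus the gene's own mean over the 4 arrays, from -0.4 (blue) to 0.4 (red). Pde10a is red at ZT2 and blue at ZT14 in both states, while most rows are pale.

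Night was first compared with day. In non-HPX, 0 members were at least 1.5-fold higher at night (0.406% of all expressed genes) and 1 of 46 was lower (0.712% of all). In HPX, 0 members were higher (0.956% of all) and 0 lower (0.848% of all). At a lower threshold, 0.32 apart on the log2 scale, 0 members were higher (2.56% of all) and 4 lower (4.83% of all) in non-HPX, namely Pde10a, Pde4d, Pde2a and Crem. In HPX, 1 member was higher by that much, Pde7b (9.26% of all), and 2 were lower, Pde4d and Pde10a (5.2% of all). Pde10a and Pde4d were lower by at least 0.32 at night in both states, 2 of 46 members against 1.16% of all expressed genes. The counts depend on the scaling. At 0.32, with each array centred on the median of the expressed genes, 3 members were lower at night in HPX in place of 2 (8.39% of all). Pde7b was still the 1 higher member there (5.12% of all), and the 4 lower members in non-HPX were the same (3.36% of all). After each array was centred on the median of the expressed genes, the calls at 1.5-fold were 59 higher and 61 lower in non-HPX in place of 45 and 79, and 62 higher and 154 lower in HPX in place of 106 and 94, while the calls among the members stayed at 0 higher and 1 lower and at 0 in either direction.

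Pde10a (probeset 17333133) encodes a phosphodiesterase that breaks down both cyclic AMP and cyclic GMP. Its log2 value was 7.82 at ZT2 and 7.14 at ZT14 in non-HPX, and 7.64 at ZT2 and 7.21 at ZT14 in HPX. Both ZT2 values lay above both ZT14 values. How many of all genes were separated in this way was not counted, here or for the members below. The night values were 1.60-fold lower in non-HPX and 1.34-fold lower in HPX, an average of -0.55 ± 0.12 that did not pass the limma fit (adjusted p = 0.107). The call depends on the setting: the adjusted p was 0.022 after median centring, 0.0409 under a stricter expression filter and 0.601 without a filter, the extremes of the alternatives being 0.022 and 0.601.

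Pde4d (probeset 17289742), a cyclic AMP-specific phosphodiesterase, stood at 6.47 and 6.07 at ZT2 and ZT14 in non-HPX and at 6.37 and 5.91 in HPX. Here too both day values exceeded both night values, and the HPX value at ZT14 lay under the floor. The night values were 1.32-fold and 1.37-fold lower, an average of -0.43 ± 0.11 (limma adjusted p = 0.237, with a range over the alternatives of 0.108 to 0.625). Pde4d did not count as expressed under the stricter filter, so that range leaves this setting out. Crem (probeset 17352371) stood at 6.77 and 6.37 in non-HPX and at 6.76 and 6.52 in HPX, again higher at ZT2 in both states, with an average of -0.32 ± 0.11 (adjusted p = 0.452; range 0.273 to 0.682).

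Pde7b (probeset 17239638), another cyclic AMP-specific enzyme, had its higher values at night: 10.28 at ZT2 and 10.45 at ZT14 in non-HPX, and 10.08 and 10.47 in HPX. The average of 0.28 ± 0.12 had an unadjusted p of 0.0381 and did not pass after adjustment (limma adjusted p = 0.565; range 0.443 to 0.731). Both night values of Pde7b lay above both day values. Pde10a, Pde4d, Crem and Pde7b were the 4 members with an unadjusted p under 0.05 for time in the limma fit. Without the expression filter Pde7b was not among them, while Pde6b and Pde6h, both under the floor, were. Under the stricter filter Pde4d was not among them, as it did not count as expressed.

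**Figure D2:**
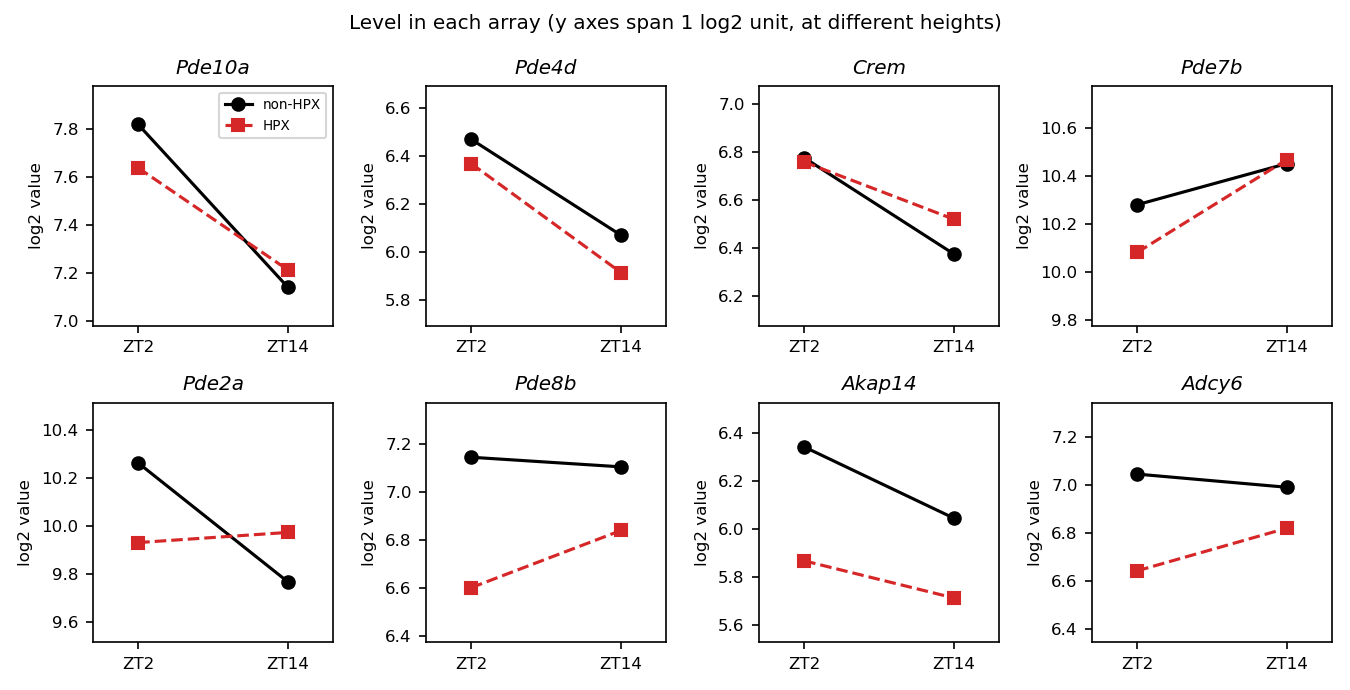
Log2 value of 8 members in the 4 arrays (1 array per point; black circles non-HPX, red squares HPX; every y axis spans 1 log2 unit at a height of its own). Pde10a, Pde4d and Crem are lower at ZT14 in both states, while Pde8b, Akap14 and Adcy6 are lower in HPX at both times.

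The cyclases showed no night change of that size. Adcy5, which responds to dopamine and adenosine receptors in the brain, stood at 8.31 and 8.07 at ZT2 and ZT14 in non-HPX and at 8.05 and 8.32 in HPX, so that its night difference was -0.24 in one state and 0.27 in the other. Adcy1, a calcium-activated cyclase, was at 6.12 and 6.36 in non-HPX and at 6.15 and 6.19 in HPX. Adcy9 was at 7.15 and 7.37 in non-HPX and at 7.05 and 7.10 in HPX. Adcy2 differed by -0.11 and -0.01 at night, Adcy7, whose values of 6.02 to 6.19 lay next to the floor, by 0.02 and 0.17, and the calcium-activated Adcy8 by -0.13 and -0.04. Adcy4 and the soluble cyclase Adcy10 lay below the floor.

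Of the 21 genes of cyclic nucleotide phosphodiesterases, 11 were expressed. Pde2a (probeset 17480880), which cyclic GMP stimulates to break down cyclic AMP, stood at 10.26 and 9.77 at ZT2 and ZT14 in non-HPX, 1.41-fold lower at night, and at 9.93 and 9.97 in HPX. The non-HPX arrays held both its highest and its lowest value. Non-HPX ZT14, where Pde2a and Pde10a were lowest, was also the array with the lowest summed signal of endothelial and mural markers. That sum was 844 and 721 at ZT2 and ZT14 in non-HPX and 837 and 840 in HPX. In HPX Pde10a was lower at night as well, at 7.64 and 7.21. All 7 of these markers were lower at night in non-HPX (57.9% of all expressed genes), and 4 of 7 in HPX (41.2% of all). The microglial sum was 1008 and 901 in non-HPX and 953 and 880 in HPX, lower at night in both states. The part of these cell types in the night differences was not tested. Pde9a, specific for cyclic GMP, was at 7.65 and 7.34 in non-HPX and 7.56 and 7.46 in HPX. Pde3b, a dual enzyme that cyclic GMP inhibits, was at 7.10 and 7.31 in non-HPX and 6.98 and 7.23 in HPX, with an average of 0.23 ± 0.11 (limma adjusted p = 0.639). The calmodulin-stimulated Pde1b differed by -0.24 and 0.04 at night and Pde1a by -0.02 and -0.05. The cyclic AMP-specific Pde4a and Pde4b differed by 0.12 and -0.02, and by -0.12 and 0.05.

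Pde7a and Pde8a lay just under the floor, with highest values of 5.92 and 5.93. Pde7a rests on 2 probesets at different heights, 1 between 4.51 and 4.72 and the other between 7.02 and 7.12, so with the higher one alone it counts as expressed, and its night differences are then -0.01 and -0.02. The other 8 phosphodiesterase genes below the floor were Pde4c, Pde1c, Pde3a, Pde11a, Pde5a and the photoreceptor enzymes Pde6a, Pde6b and Pde6c. Pde6a, at 3.01 and 3.90 at ZT2 and ZT14 in HPX, differed most among them, between values far under the floor.

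Some members share the Pde name without breaking down cyclic nucleotides. Pde6d, which carries prenylated proteins, differed by -0.01 and 0.22 at night, the centrosomal and Golgi protein gene Pde4dip by -0.04 and 0.02, and Pde12, which acts on RNA ends in mitochondria, by 0.08 and 0.19. Pde6g and Pde6h, inhibitory subunits of the photoreceptor enzyme, were below the floor.

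All 6 PKA subunit genes were expressed, and their 4 differences ranged from -0.18 to 0.20. Prkacb, the beta catalytic subunit, stood at 9.94 and 9.87 at ZT2 and ZT14 in non-HPX and at 9.92 and 10.05 in HPX. Prkaca, the alpha catalytic subunit, rests on 2 probesets that disagreed: probeset 17503031 read 9.86 and 9.72 in non-HPX and 9.60 and 9.89 in HPX, while probeset 17510983 read 5.94 and 6.04 in non-HPX and 5.84 and 5.94 in HPX. The night difference in non-HPX was thus -0.14 by one and 0.11 by the other. Prkar1a was at 9.01 and 8.85 in non-HPX and 8.84 and 9.04 in HPX, and its neuronal relative Prkar1b at 8.83 and 8.73 and at 8.76 and 8.92. Prkar2a differed by 0.02 and 0.07 at night and Prkar2b by -0.10 and -0.06.

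Of 16 anchoring protein genes, 14 were expressed. Akap6, which anchors PKA at the nuclear envelope, stood at 9.70 and 9.60 in non-HPX and 9.45 and 9.65 in HPX. Akap9, of the centrosome and Golgi, differed by 0.03 and 0.09 at night, and Akap11 by -0.08 and -0.19. Akap14 is described with the surgical states below. Among the other 10, the 4 differences ranged from -0.28 to 0.31, the extremes being Akap12 in non-HPX and the mitochondrial anchor Akap1 in HPX, both for night. Akap3 and Akap4, known from sperm, lay below the floor with highest values of 3.96 and 4.02. Creb1 was at 8.66 and 8.55 in non-HPX and 8.43 and 8.44 in HPX, Crtc1 differed by 0.13 and 0.05 at night and Crtc3 by 0.01 and 0.21, and Crtc2 by -0.01 and 0.29.

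**Figure D3:**
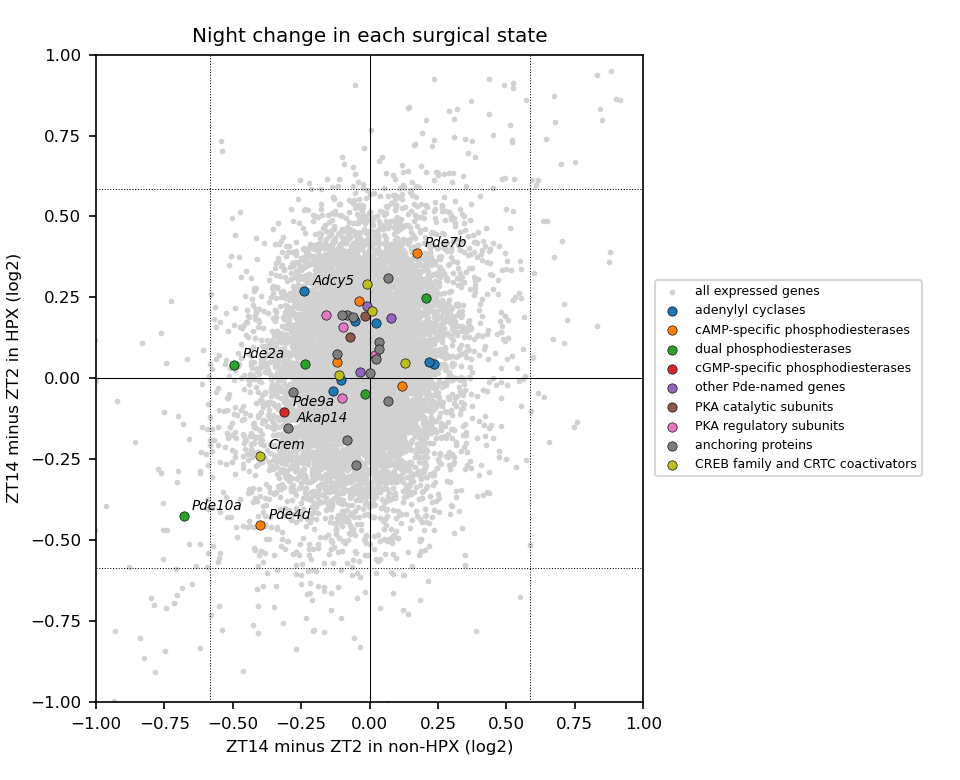
Night change (ZT14 minus ZT2, log2) in non-HPX (x axis) against HPX (y axis) for the 46 expressed members, coloured by role, over all expressed genes in grey; dotted lines mark 1.5-fold, and 40 of the 11090 genes lie outside the plotted range of -1 to 1. Pde10a alone among the members passes a dotted line, and Pde4d lies beside it.

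HPX was then compared with non-HPX. At ZT2, 0 members were at least 1.5-fold higher in HPX (0.225% of all expressed genes) and 0 lower (0.622% of all), and at ZT14 0 were higher (0.153% of all) and 0 lower (0.469% of all). At 0.32 on the log2 scale, 0 members were higher (2.42% of all) and 4 lower (6.74% of all) at ZT2, namely Pde8b, Akap14, Adcy6 and Pde2a. After cyclic loess Pde2a no longer reached that threshold and 3 members did. After median centring neither Pde2a nor Adcy6 did, which left 2. At ZT14, 0 were higher (2.91% of all) and 1 was lower, Akap14 (3.12% of all). Akap14 was thus the 1 member lower in HPX by at least 0.32 at both times, against 0.766% of all genes, and at ZT14 it fell short after cyclic loess. It counts as expressed only through its non-HPX values, which favours a lower reading in HPX. After median centring the calls over all genes at 1.5-fold were 72 higher and 37 lower at ZT2, in place of 25 and 69.

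Akap14 (probeset 17541028), an anchoring protein known from cilia, stood at 6.34 and 6.05 at ZT2 and ZT14 in non-HPX and at 5.87 and 5.71 in HPX. Both non-HPX values lay above both HPX values, which were under the floor. The average effect of surgery was -0.40 ± 0.11 (limma adjusted p = 0.571, with a range over the alternatives of 0.439 to 0.931). Under the stricter filter, at 6.60, Akap14 did not count as expressed, so that range leaves this setting out. Of the 5 markers of ependyma and choroid plexus, Ttr, Kl and Folr1 were below the floor. The cilia regulator Foxj1 stood at 7.18 and 7.00 in non-HPX and 6.96 and 6.95 in HPX, and Ccdc153 at 8.71 and 8.83 and at 8.72 and 8.69. The summed signal of all 5 was 687 and 715 in non-HPX and 668 and 660 in HPX, and its part in the Akap14 difference was not tested.

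Pde8b (probeset 17295059), a cyclic AMP-specific phosphodiesterase, stood at 7.14 and 7.10 in non-HPX and at 6.60 and 6.84 in HPX. It was 1.46-fold lower in HPX at ZT2 and 1.20-fold lower at ZT14. The average was -0.40 ± 0.12 (limma adjusted p = 0.639, with a range of 0.445 to 0.923). Adcy6 (probeset 17321263), a cyclase that calcium inhibits, stood at 7.04 and 6.99 in non-HPX and at 6.64 and 6.82 in HPX, 1.32-fold and 1.13-fold lower, an average of -0.29 ± 0.12 (adjusted p = 0.991; range 0.927 to 1). Akap14, Pde8b and Adcy6 were the 3 members with an unadjusted p under 0.05 for surgery, and the unadjusted p of Adcy6 was 0.0503 after median centring and 0.0758 without the expression filter. Pde2a was 1.26-fold lower in HPX at ZT2 and 1.15-fold higher at ZT14, and its average effect was -0.06 ± 0.14.

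**Figure D4:**
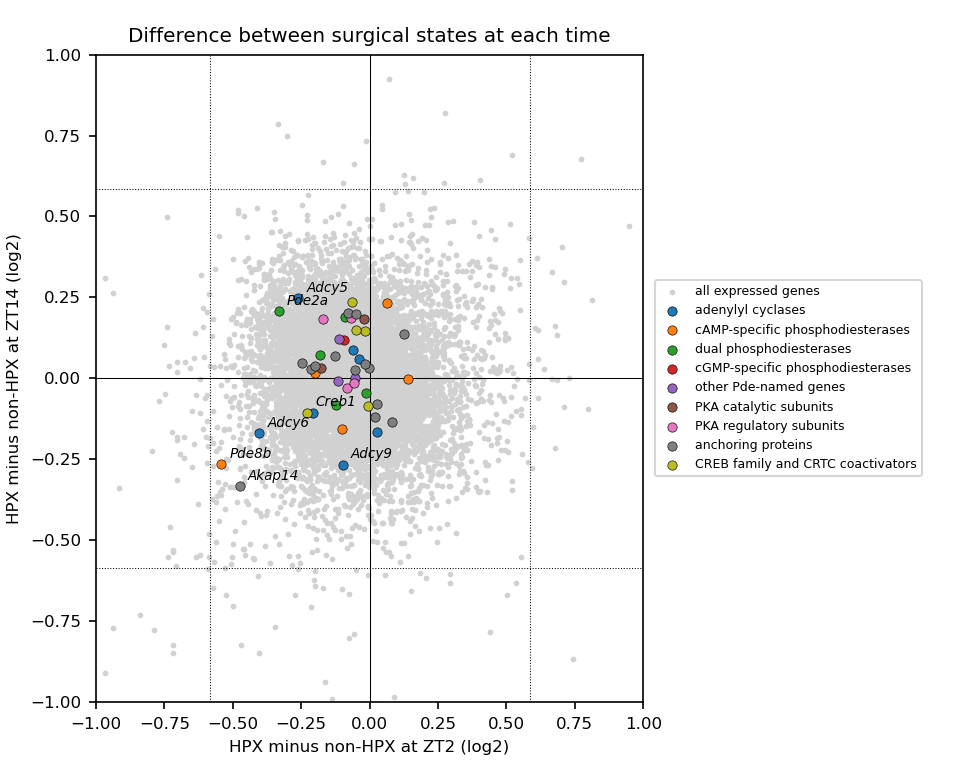
HPX minus non-HPX (log2) at ZT2 (x axis) against ZT14 (y axis) for the 46 expressed members, coloured by role, over all expressed genes in grey; dotted lines mark 1.5-fold, and 15 of the 11090 genes lie outside the plotted range. Pde8b and Akap14 lie lowest to the left among the members, inside the dotted lines.

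The direction of the many small differences depended on how the arrays were scaled. At ZT2 only 7 of 46 members were above 0 for HPX minus non-HPX, as were 34.3% of all expressed genes. The numbers were 19 of 46 and 43.9% after cyclic loess, and 26 of 46 and 58.7% after median centring. At ZT14 it was 28 of 46, beside 53.2% of all. For night, 16 of 46 members were above 0 in non-HPX (42% of all) and 32 of 46 in HPX (58.6% of all). The median over the members was -0.05 in non-HPX and 0.05 in HPX, against -0.03 and 0.04 over all genes, and after median centring it was -0.01 in both states, so that the direction in HPX turned. For surgery the members' median was -0.08 at ZT2 and 0.03 at ZT14, against -0.06 and 0.01 over all genes, and at ZT2 it turned to 0.01 after median centring, when that of all genes was 0.04.

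The night change was larger in HPX than in non-HPX (a more positive difference) in 37 of 46 members, beside 61.9% of all expressed genes. The median of the difference between the states' night changes was 0.16 over the members and 0.07 over all genes. After cyclic loess it was 30 of 46 members beside 55.8% of all genes, with medians of 0.15 and 0.03. After median centring it was 27 of 46 beside 44%, with medians of 0.052 and -0.03, a shift of the all-gene median by more than 0.1. Pde2a and Adcy5 had the largest values among the expressed members, 0.54 and 0.51. All 6 PKA subunits had a positive value, with a median of 0.21, but 4 of 6 after either rescaling. With 1 array per group the difference between the states cannot be tested, and no member had differences of at least 0.32 in opposite directions.

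Other genes of the pathway, outside the naming rule, were taken from 7 lists with 79 symbols, of which 71 had a probeset of their own and 54 were expressed. In the limma fit 0 of these rose and 5 fell at night at an adjusted p of 0.05, while 0.343% of all expressed genes fell, and 0 passed for surgery. All 5 stood on the list of 18 known CREB target genes, 16 of them expressed: Sik1, Per1, Dusp1, Nr4a2 and Gem. The list was drawn up with earlier results of these arrays known and is no independent evidence. Gem, a small GTPase that restrains calcium channels, stood at 7.00 and 6.32 at ZT2 and ZT14 in non-HPX and at 7.11 and 6.03 in HPX, an average of -0.88 ± 0.13 (adjusted p = 0.0158). Sik1, a kinase that keeps CRTC coactivators out of the nucleus, stood at 9.17 and 7.75 in non-HPX and at 8.98 and 7.76 in HPX (adjusted p = 0.00129). Per1, a core clock gene, differed at night by -1.06 in non-HPX and -0.87 in HPX (adjusted p = 0.00739), the phosphatase gene Dusp1 by -1.41 and -1.06 (adjusted p = 0.00321) and the nuclear receptor gene Nr4a2 by -0.88 and -0.58 (adjusted p = 0.0300). The night values of Nr4a2, 6.05 in non-HPX and 5.90 in HPX, lay next to the floor and under it. The Nr4a2 relatives Nr4a1 and Nr4a3 were at least 1.5-fold lower at night in non-HPX, at -0.70 and -0.66, and differed by -0.12 and -0.51 in HPX. Neither passed the limma fit (adjusted p = 0.451 for Nr4a1 and 0.0684 for Nr4a3). The count depends on the processing. It was 6, with Nr4a3 added, after cyclic loess, after median centring, under the stricter filter and with an intensity trend in the prior, whereas without the expression filter it was 0 and the limma adjusted p of the 5 genes lay between 0.496 and 0.550. On simulated data this limma fit made more false calls than its threshold allows in most runs, so the adjusted p-values may be too small. The list's median night difference was -0.38 in non-HPX and -0.33 in HPX, against -0.03 and 0.04 over all expressed genes. Of its 16 expressed genes, 13 were below 0 in non-HPX (57.9% of all expressed genes) and 12 in HPX (41.2% of all). After cyclic loess 11 of the 16 were below 0 in non-HPX and 12 in HPX. Egr1, above the floor only in non-HPX ZT14, was higher at night by 0.52 in non-HPX and 0.33 in HPX (limma adjusted p = 0.258). Nfil3 was higher by 0.34 and 0.20 (adjusted p = 0.576).

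Upstream, 8 of the 14 measured ligand and receptor genes coupled to cyclic AMP were expressed, and 0 of 8 passed. Their median night differences were 0.26 in non-HPX and 0.32 in HPX, against -0.03 and 0.04 over all expressed genes. Adcyap1, which encodes the light-pathway peptide PACAP, stood at 5.74 and 6.05 in non-HPX and at 5.45 and 6.20 in HPX, both ZT2 values being under the floor (limma adjusted p = 0.203). Vipr2, the VIP receptor of the SCN, had an adjusted p of 0.238 for time in the limma fit. Gpr176, an orphan receptor that lowers cyclic AMP in the SCN, stood at 7.38 and 7.65 in non-HPX and at 7.19 and 7.68 in HPX (adjusted p = 0.329). Of the 7 alpha subunits of stimulatory and inhibitory G proteins, all expressed, Gnal differed most at night on the average over the states. Its difference was -0.41 in non-HPX and -0.18 in HPX (limma adjusted p = 0.525), and in HPX alone it was not the largest. Nos1, the neuronal nitric oxide synthase on the cyclic GMP side, was 1.57-fold lower in HPX at ZT2, at 5.53 against 6.18. It stood at 6.05 against 6.15 at ZT14 (limma adjusted p = 0.935 for surgery). The HPX value of Nos1 at ZT2 lay under the floor. This was 1 of 54 expressed pathway genes at least 1.5-fold lower at ZT2, beside 0.622% of all expressed genes. The other effectors (4 expressed of 10 measured), the PKA inhibitors and SIK kinases besides Sik1 (5 expressed), the rest of the cyclic GMP genes (6 expressed) and the CREB coactivators and relatives (7 expressed) held no expressed gene that passed or that was 1.5-fold apart in any of the 4 differences.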

How the data were processed

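The deposited log2 values come, per the submitters' processing notes, from the RMA method of the Affymetrix software Expression Console. No version is given in the sources used here. RMA (robust multi-array average) forces the arrays onto 1 intensity distribution, so a change shared by most genes can be removed. The median of the expressed genes still differed between arrays, from 7.28 in HPX ZT2 to 7.37 in non-HPX ZT2. Per the labels' protocols, 5.5 µg of fragmented cDNA was labelled. Precision is limited by the number of arrays.

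Of 41345 probesets, 23521 named 1 gene in the platform annotation, 1814 several and 16010 were unnamed. The single-gene probesets were averaged per gene. Of the 64 member probesets, 63 matched the RefSeq table (GRCm38.p6) by Entrez identifier and 0 symbols changed; Akap2 did not match.

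Additive models were fitted with limma 3.58.1 (R 4.3.3), whose estimated prior has 8.77 degrees of freedom against 1 residual one, so the p-values depend chiefly on a variance pooled across genes. Tested on simulated data, the fit recovered large changes, and its share of false calls lay above the nominal level in most runs. Other steps used Python 3.11.15, numpy 2.4.6, pandas 2.3.3 and matplotlib 3.10.9.

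Members named with values were those past a threshold, the 3 highest and the most different of each role, those next to the floor and those with disagreeing probesets. Pathway genes outside the naming rule were those past a threshold. Adcy8, Pde1a, Crtc2, Akap1, Akap12, Vipr2, Gpr176, Gnal, Egr1 and Nfil3 and the genes below the floor were named after their values were seen. Alternatives were cyclic loess, median centring, no filter, a stricter filter (60th percentile, 6.60), the highest probeset per gene, a threshold of 0.32 on the log2 scale for differences and trend or robust priors. The lower threshold under both rescalings and the CREB target count under each alternative were added after seeing the data. The members and lists were chosen with earlier results of these data known.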

Additional observations from a re-analysis of the deposited data

How the results depend on the processing

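No paired analysis was possible because each group holds 1 array, and for the same reason no array could be left out of the additive fit. The number of members at least 1.5-fold apart was 1 for night in non-HPX and 0 in the other 3 differences. At 0.32 on the log2 scale it was 4 for night in non-HPX, 3 for night in HPX, 4 for HPX at ZT2 and 1 for HPX at ZT14. Without the expression filter it was 2 for night in HPX and 1 for HPX at ZT14, from genes under the floor. The number passing limma for time was 0, but 1 (Pde10a) after median centring and 1 under the stricter filter. The median difference between the states' night changes was 0.16 and moved to 0.052 after median centring. No value of a named member reversed past a threshold. Over all genes, limma passed 60 for time (1 without the filter, 122 after centring) and 15 for surgery (0 without the filter, 24 under the stricter filter). The 1.5-fold counts of 124, 200, 94 and 69, in the order above, became 805, 834, 751 and 592 without the filter and 820, 1604, 1016 and 669 at 0.32 on the log2 scale, and the last became 45 under the stricter filter.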

Other observations

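Probesets that name a gene of this pathway together with another gene were kept out of the comparisons, since their signal cannot be assigned. The probeset for Adcy3 and Cenpo read 8.89 at ZT2 and 8.54 at ZT14 in non-HPX, and 8.69 and 8.79 in HPX. Of 2 probesets for Atf1 and its pseudogene, 1 read 6.54 and 6.51 in non-HPX and 6.29 and 6.35 in HPX, and the other 8.21 and 8.10 in non-HPX and 8.32 and 8.28 in HPX, so that they disagreed on the direction of HPX minus non-HPX at both times. The probeset for Palm2 and Akap2 read 7.00 and 6.93 in non-HPX and 6.82 in both HPX arrays.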
